A study of Mus musculus with 18 samples.

Results

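The 30 genes described here encode the enzymes and carriers that break down fatty acids in mitochondria and peroxisomes, 2 enzymes of ketone body metabolism, and Ppara, the nuclear receptor that controls many of them. They were taken from a list of gene symbols and matched to the Ensembl mouse identifiers of the count table. All 30 were found among the 28030 genes of that table, and all 30 passed the filter on low counts, which left 12477 genes for testing. RNA was sequenced from hepatocytes of wild-type (WT) male C57BL/6J mice, 12 weeks old and on normal chow (lab diet 5053). Pericentral (PC) cells, near the central vein, and periportal (PP) cells, near the portal inflow, were separated with digitonin, a detergent used to open hepatocytes of a chosen zone. Each zone was sampled in 3 feeding states with 3 libraries each, which gave 6 groups and 18 libraries. All mice had gone through 3 days of training in which food was withheld overnight for 16 h. Fed mice then ate for 4 h with 20% sucrose in the drinking water and were killed at clock hour 13. For the fasted groups food and sucrose were then taken away, and the mice were killed after 8 h, at clock hour 21, or after 24 h, again at clock hour 13. The 8 h groups thus differed from the fed ones, and from the 24 h ones, both in fasting and in the hour of death. The labels do not say whether the libraries of a group came from separate mice, nor whether both zones of a replicate number came from 1 mouse, so the p-values measure the spread between these libraries.

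Fatty acids enter the mitochondrial matrix through the carnitine shuttle, in which Cpt1a makes the acylcarnitine, Slc25a20 carries it across the inner membrane and Cpt2 turns it back into acyl-CoA. Each turn of the beta-oxidation spiral then shortens the chain by a dehydrogenation, a hydration, another dehydrogenation and a thiolytic cleavage, and passes electrons to the respiratory chain through the electron transfer flavoprotein. Peroxisomes shorten very long and branched chains first, and in the fasted liver the acetyl-CoA produced feeds ketone body synthesis.

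The libraries held 18359911 to 26384358 estimated counts each. Summed levels of 4 pericentral markers ranged from 9305 to 18314 CPM (counts per 1000000, scaled with TMM factors) in the pericentral libraries, which number 9, while the 9 periportal libraries held 420.0 to 2044 CPM. The sum of 4 periportal markers ranged from 278 to 1793 CPM and from 3134 to 5413 CPM, in that order. Pericentral 24 h replicate 2 stood apart, with a periportal marker sum of 1793 CPM where replicates 1 and 3 had 869 and 806 CPM, and a sum of cell stress genes of 29.6 CPM where they had 281 and 169 CPM. Pericentral marker sums were uneven in periportal libraries too. They were 536, 1508 and 420 CPM in fed replicates 1 to 3 and 2044, 1175 and 561 CPM in 24 h replicates 1 to 3. Periportal 8 h replicate 1 had the highest cell stress sum of the 18 libraries, at 362 CPM where replicates 2 and 3 had 217 and 91.8 CPM, and a lower hepatocyte marker sum, at 107500.0 CPM where they had 167002 and 150498 CPM. Defining hepatocyte genes were abundant in all libraries, and their sum over 5 genes was 55846 to 95905 CPM in pericentral and 107500.0 to 185341 CPM in periportal libraries. Summed markers of endothelial cells, of Kupffer cells and leukocytes, and of stellate cells and fibroblasts stayed at or below 24.4, 17.4 and 15.5 CPM. The sum of 5 cholangiocyte markers was 19.3 to 37.6 CPM in pericentral and 32.8 to 56.7 CPM in periportal libraries, with Epcam at 0 in every library. In such bulk samples, fewer cells of a type and less RNA per cell cannot be told apart.

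After 24 h without food, most of the fatty acid oxidation genes that passed the test did so in both zones, and each of them was higher than in fed mice. In pericentral cells 20 of the 30 genes rose and 0 fell by edgeR at an adjusted p under 0.05, whereas 21.8% of all genes tested were called, 10.8% higher and 11.1% lower. In periportal cells 17 rose and 0 fell, beside 19.6% of all genes, 9.59% higher. Log2 fold changes are given with their SE after the ± sign, and adjusted p-values and calls are those of edgeR unless another tool is named. The median log2 fold change of the 30 genes was 0.69 in pericentral and 0.48 in periportal cells, and that of all genes was 0.01 and 0.00. Without periportal fed replicate 3 the periportal median was 0.64, with 18 genes called. Of the 30 genes, 16 rose in both zones. Another 4 passed the test in pericentral cells alone (Hadh, Ehhadh, Hsd17b4 and Crot) and Etfb in periportal cells alone by edgeR. DESeq2 also called Etfb in pericentral cells (adjusted p = 0.0397) and Hsd17b4 in periportal cells (adjusted p = 0.0451), and the zone difference in the change, tested below, was not significant for any of them. The libraries of the 24 h and fed groups did not overlap for 27 genes in pericentral cells, each higher at 24 h, where 38.7% of all genes were free of overlap. In periportal cells they did not overlap for 22 genes, of which 20 were higher and 2 (Bdh1 and Abcd2) lower, where the share of all genes was 36.9%. The periportal count varied with the libraries used. It fell to 7 on leaving out periportal fed replicate 1 or 2, to 7 without replicate 2 of the periportal 24 h group, and to 8 without its replicate 3. The median log2 changes in these fits were 0.44, 0.37, 0.45 and 0.44, in that order. How many of all genes passed the test in these smaller fits was not counted. The periportal calls of Acadl, Acadm, Hadha, Hadhb, Decr1, Etfb and Etfdh were each lost without any 1 of those 4 libraries, and that of Acaa1a without the first 3. The pericentral count stayed between 15 and 22 when any 1 library was left out. In both zones the calls of Cpt1a, Slc25a20, Cpt2, Eci2, Crat, Pex11a and Ppara were kept in all 18 such fits.

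**Figure D1:**
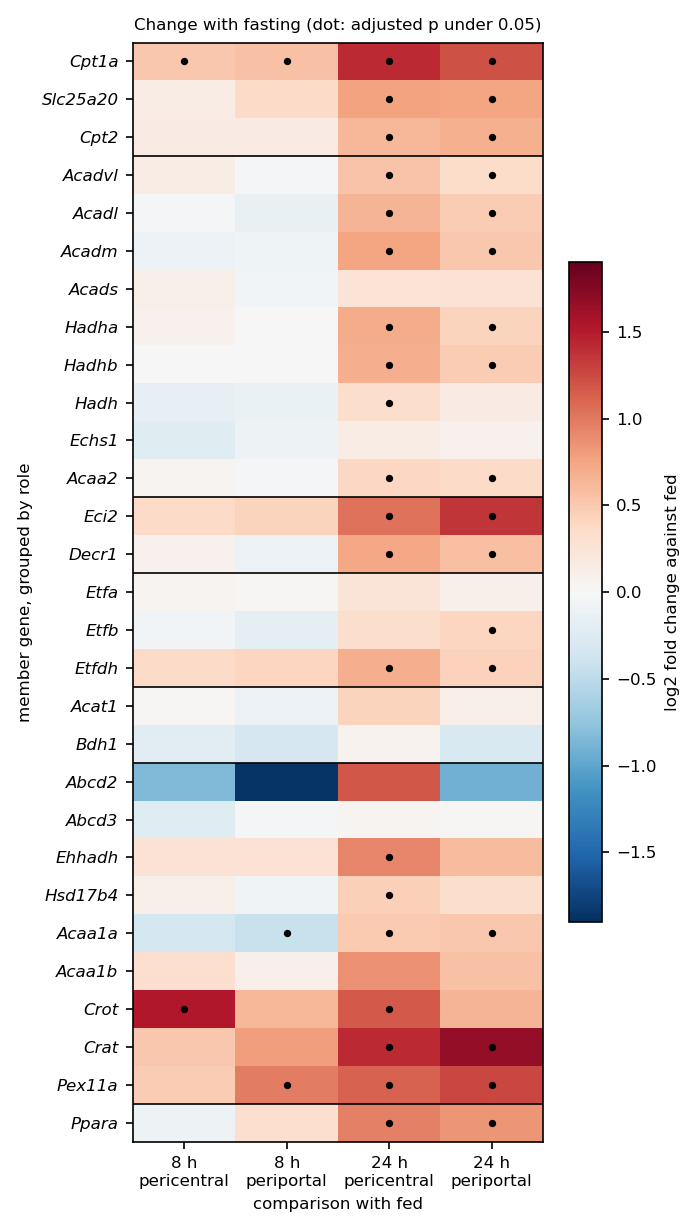
Log2 fold change against the fed group (colour scale, red higher and blue lower) of 29 member genes, in rows by role, for the 8 h and the 24 h fast in each zone; dots mark an adjusted p under 0.05. Both 24 h columns are mostly red, with 20 and 17 dots, and both 8 h columns are mostly pale, with 2 and 3 dots; Eci1, near 0 counts, is left out.

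Summed over the 30 genes, the level in pericentral cells was 7390.0 ± 642 CPM (SD, n = 3) in fed mice, 8229 ± 919 CPM after 8 h and 11373 ± 429 CPM after 24 h. In periportal cells the sums were 6849 ± 972, 7203 ± 1118 and 9349 ± 397 CPM (SD, n = 3). In both zones the 24 h libraries lay above all fed libraries, and the 8 h libraries overlapped the fed ones. The 20 mitochondrial genes reached 7089 ± 303 CPM in pericentral and 6393 ± 264 CPM in periportal cells at 24 h (SD, n = 3), from fed sums of 4729.6 ± 469.5 and 4704 ± 619 CPM. The 9 peroxisomal genes reached 4090.2 ± 147 and 2819 ± 151 CPM from 2561 ± 241 and 2068 ± 351 CPM. These sums weight the abundant genes most and were not tested.

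**Figure D2:**
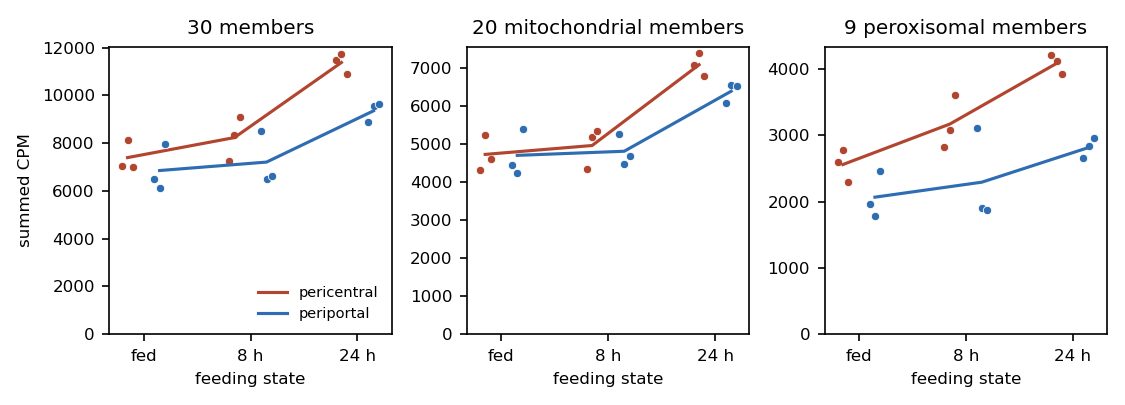
Summed CPM (vertical axes, from 0) of all 30 genes, the 20 mitochondrial and the 9 peroxisomal genes by feeding state; each point is 1 library, lines join the means of 3 libraries, red for pericentral and blue for periportal. Within each zone the 24 h points lie above the fed points in each panel, and at 24 h the peroxisomal sums are 3928 CPM or more in pericentral and 2959.7 CPM or less in periportal libraries.

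The carnitine shuttle rose as a whole at 24 h, with 3 of 3 genes called higher in each zone. Of all genes, 10.8% were called higher in pericentral and 9.59% in periportal cells. Cpt1a (ENSMUSG00000024900, 19:3322326-3385735 in GRCm38), the rate-controlling outer membrane transferase, stood at 216, 285 and 264 CPM in the pericentral fed libraries, 377, 344 and 366 CPM after 8 h and 731, 721 and 583 CPM after 24 h. The periportal values were 299.6, 232 and 317 CPM fed, 434, 345 and 473 CPM after 8 h without food and 699, 638 and 620.1 CPM after 24 h. The 3 states were free of overlap in both zones, and Cpt1a was the 1 member called at both steps, fed to 8 h and 8 to 24 h, in both zones. The 24 h change was a log2 fold change of 1.41 ± 0.15 (adjusted p = 1e-05) in pericentral and 1.20 ± 0.15 (adjusted p = 4.36e-05) in periportal cells. Both calls were kept under all 8 alternative settings and without any 1 library.

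Slc25a20, the carnitine-acylcarnitine carrier, was at 104, 118 and 121 CPM in pericentral fed and 201, 191 and 193 CPM in pericentral 24 h libraries, a log2 fold change of 0.77 ± 0.13 (adjusted p = 0.000554). Its periportal change was 0.74 ± 0.13 (adjusted p = 0.000877). Cpt2, the inner membrane transferase, rose by 0.64 ± 0.15 (adjusted p = 0.00658) on the log2 scale in pericentral and by 0.68 ± 0.15 (adjusted p = 0.00489) in periportal cells. Neither gene overlapped between fed and 24 h libraries in either zone, and neither was called between the zones, with log2 differences at 24 h, periportal against pericentral, of -0.17 and 0.06.

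In the mitochondrial spiral, 7 of 9 genes rose in pericentral and 6 of 9 in periportal cells at 24 h, beside 10.8% and 9.59% of all genes. The first step is catalysed by acyl-CoA dehydrogenases of different chain length. Acadm, the medium-chain enzyme, read 322, 394 and 322 CPM in pericentral fed and 577, 583 and 579 CPM in pericentral 24 h libraries, a log2 fold change of 0.75 ± 0.16 (adjusted p = 0.00335). In periportal cells Acadm went from 332, 308 and 442 CPM to 471, 562 and 514 CPM, a change of 0.52 ± 0.16 (adjusted p = 0.0327). The fed and 24 h libraries did not overlap in either zone, but periportal fed replicate 3 lay well above the other fed libraries of its group. Acadl, the long-chain enzyme, rose by 0.65 ± 0.14 (adjusted p = 0.00308) and 0.48 ± 0.14 (adjusted p = 0.0212), and Acadvl, the very-long-chain enzyme, by 0.54 ± 0.11 (adjusted p = 0.00259) and 0.35 ± 0.11 (adjusted p = 0.041) on the log2 scale, pericentral first. Acads, the short-chain enzyme, did not pass the edgeR test in either zone, though DESeq2 called it in periportal cells (adjusted p = 0.0262), with edgeR log2 changes of 0.25 ± 0.10 (adjusted p = 0.0726) and 0.28 ± 0.10 (adjusted p = 0.0552), although its libraries did not overlap in either zone. The confidence intervals (95%) of these Acads changes were 0.05 to 0.46 and 0.07 to 0.48. The periportal Acadvl call was kept in 8 of the 18 fits that left out 1 library.

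Hadha and Hadhb encode the alpha and beta subunits of the trifunctional protein, which carries out the remaining steps on long chains. Their start sites face away from each other on chromosome 5, and 272 bases separate the annotated ends of the genes (Hadha 30119423 to 30154980, Hadhb 30155253 to 30184593, GRCm38.p6). Because both genes moved together, the 300-base window around the Hadhb start (250 bases before it and 50 after) is shown from RefSeq (GRCm38.p6, chr5:30155003-30155302, plus strand, 5′ to 3′). Capitals mark the 228 bases that also lie, on the other strand, in the corresponding window of Hadha.
Hadhb: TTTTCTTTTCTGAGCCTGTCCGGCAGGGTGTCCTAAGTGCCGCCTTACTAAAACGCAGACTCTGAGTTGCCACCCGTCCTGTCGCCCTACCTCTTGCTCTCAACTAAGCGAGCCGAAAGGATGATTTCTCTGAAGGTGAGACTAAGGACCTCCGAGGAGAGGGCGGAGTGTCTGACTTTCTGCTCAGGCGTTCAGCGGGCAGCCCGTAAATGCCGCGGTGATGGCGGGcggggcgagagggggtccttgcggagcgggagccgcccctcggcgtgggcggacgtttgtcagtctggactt

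Hadha read 334, 358 and 359 CPM in pericentral fed and 536, 615 and 562 CPM in pericentral 24 h libraries. Hadhb read 157, 199 and 161 CPM and 275, 295 and 263 CPM in the same libraries. Both groups of libraries were free of overlap for both subunits. The pericentral log2 fold changes were 0.70 ± 0.14 (adjusted p = 0.00153) for Hadha and 0.69 ± 0.15 (adjusted p = 0.00318) for Hadhb. The periportal ones were 0.43 ± 0.14 (adjusted p = 0.0369) and 0.48 ± 0.15 (adjusted p = 0.0308). After 8 h, the log2 changes of the pair were 0.08 and 0.01 in pericentral and 0.01 and 0.00 in periportal cells, none of them called. The level of Hadhb is uncertain where counting could split reads, since 62.1% of the 31-base words of its coding transcripts also occur in other genes, chiefly the pseudogene Gm13910, which held 0 to 5.94 estimated counts.

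The other spiral enzymes act on shorter chains. Acaa2, the matrix thiolase that cleaves medium chains, rose by 0.40 ± 0.12 (adjusted p = 0.0258) in pericentral and 0.36 ± 0.12 (adjusted p = 0.0442) in periportal cells on the log2 scale. Hadh, the hydroxyacyl-CoA dehydrogenase for shorter chains, rose in pericentral cells by 0.33 ± 0.11 (adjusted p = 0.0382), and its periportal change was 0.15 ± 0.11 (adjusted p = 0.381). The pericentral calls were kept in 14 (Acaa2) and 11 (Hadh) of the 18 fits that left out 1 library, and the periportal Acaa2 call in 8. Echs1, the short-chain enoyl-CoA hydratase, passed no comparison with fed by edgeR, with 24 h changes of 0.14 ± 0.09 (adjusted p = 0.266) and 0.08 ± 0.09 (adjusted p = 0.578). Its 8 h libraries lay below the fed ones in both zones without overlap, at 161, 164 and 174 CPM against 176, 208 and 204 CPM in pericentral and 171, 181 and 179 CPM against 182, 201 and 186 CPM in periportal cells. DESeq2 called the pericentral 8 h change of Echs1 (adjusted p = 0.0194), and by edgeR the 8 h changes were not called, at -0.24 ± 0.09 (adjusted p = 0.0812) and -0.10 ± 0.09 (adjusted p = 0.509).

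**Figure D3:**
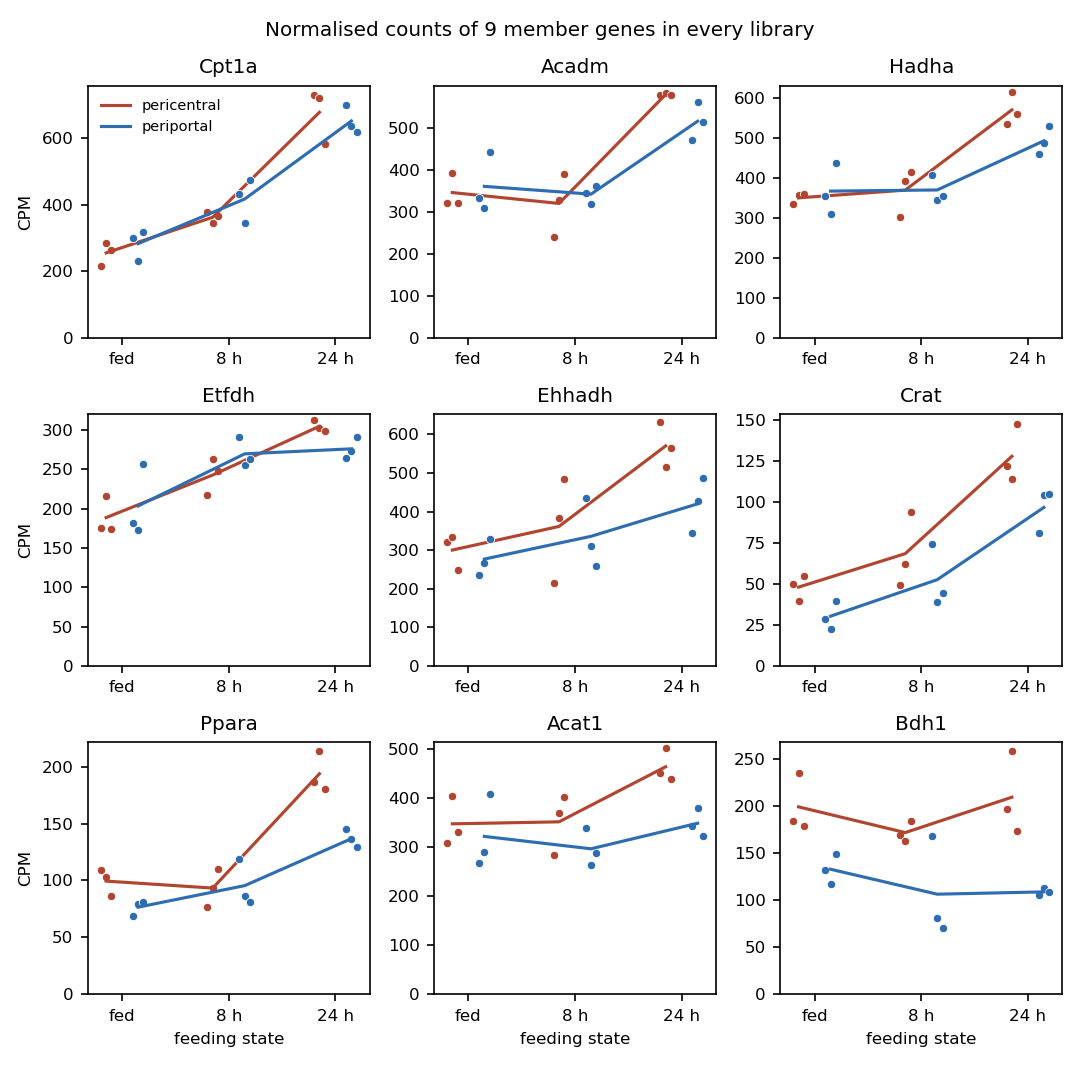
CPM (vertical axes, from 0) of 9 member genes in each of the 18 libraries by feeding state; points are libraries and lines join the means of 3, red for pericentral and blue for periportal. Cpt1a climbs at each step in both zones, whereas Acadm and Hadha are level from fed to 8 h and higher at 24 h; Bdh1 lies lower in periportal cells in the fed and 24 h states, and 1 periportal 8 h library, at 168 CPM, reaches the pericentral ones.

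Unsaturated fatty acids need auxiliary enzymes that move or remove double bonds. Eci2, an enoyl-CoA isomerase found in mitochondria and peroxisomes, had one of the larger changes of the mitochondrial genes. It read 158, 220.4 and 162 CPM in pericentral fed and 363, 349 and 392 CPM in pericentral 24 h libraries, and 108, 99.6 and 113 CPM and 254, 260.5 and 305 CPM in periportal ones. The groups did not overlap in either zone, and the log2 fold changes were 1.03 ± 0.20 (adjusted p = 0.00139) and 1.36 ± 0.20 (adjusted p = 0.000203). Of the 31-base words of Eci2, 12.1% occur elsewhere, mostly in Eci3, which held at most 13 counts in a library. Decr1, the dienoyl-CoA reductase, rose by 0.73 ± 0.16 (adjusted p = 0.00369) in pericentral and 0.58 ± 0.16 (adjusted p = 0.0183) in periportal cells on the log2 scale. The other mitochondrial isomerase gene, Eci1, held between 0 and 13.5 estimated counts per library and was at 0 in 4 of 18, so no fold change is given for it. It passed the filter on low counts, and why its counts were so low was not tested.

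Electrons from the dehydrogenases pass to the flavoprotein of Etfa and Etfb and on to the ubiquinone oxidoreductase Etfdh. Etfdh read 175, 216 and 174 CPM in pericentral fed and 313, 303 and 299 CPM in pericentral 24 h libraries, which did not overlap, a log2 fold change of 0.69 ± 0.14 (adjusted p = 0.00161). The periportal change was 0.44 ± 0.13 (adjusted p = 0.0301), with 182, 173 and 256 CPM fed and 265, 273 and 291 CPM at 24 h, and fed replicate 3 came close to the lowest 24 h library. Etfb rose in periportal cells by 0.40 ± 0.12 (adjusted p = 0.0271), although its libraries overlapped, and had a pericentral change of 0.33 ± 0.12 (adjusted p = 0.0569). Etfa did not pass the test in either zone, with changes of 0.25 ± 0.11 (adjusted p = 0.104) and 0.10 ± 0.11 (adjusted p = 0.574). The Etfb level is uncertain in the same way as that of Hadhb, since 62% of its 31-base words also occur in Gm45233, a gene that was not analysed here.

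Of the 2 genes of ketone body metabolism, 0 were called against fed at 24 h in either zone by edgeR. Of all genes, 21.8% were called in pericentral and 19.6% in periportal cells, so 0 of 2 does not set these genes apart. Acat1 encodes the mitochondrial acetoacetyl-CoA thiolase, and Bdh1 the dehydrogenase that interconverts acetoacetate and 3-hydroxybutyrate. Acat1 read 308, 402 and 329 CPM in pericentral fed and 450.1, 501 and 438 CPM in pericentral 24 h libraries, without overlap, a log2 change of 0.42 ± 0.17 (adjusted p = 0.0822). In periportal cells the change of Acat1 was 0.12 ± 0.17 (adjusted p = 0.682), and the libraries overlapped. Bdh1 read 183, 235 and 178 CPM fed, 168, 163 and 183 CPM after 8 h without food and 197, 258 and 173 CPM after 24 h in pericentral cells. In periportal cells Bdh1 read 131, 117 and 149 CPM, 168, 80.8 and 69.9 CPM and 105, 113 and 108 CPM. The periportal 24 h libraries lay below the fed ones without overlap. Its 24 h changes were 0.07 ± 0.25 (adjusted p = 0.872) and -0.29 ± 0.25 (adjusted p = 0.462), with intervals (95%) of -0.45 to 0.59 and -0.81 to 0.24 on the log2 scale. At an unadjusted p under 0.05, 1 of the 2 genes (Acat1) passed in pericentral and 0 in periportal cells, and DESeq2 and limma-voom also called 0 of 2 in each zone.

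Of the peroxisomal genes, 6 of 9 were called higher in pericentral and 3 of 9 in periportal cells at 24 h, beside 10.8% and 9.59% of all genes. DESeq2 called 6 and 4 of them, and the zone difference in the change was called for 0 of 9. Abcd2 and Abcd3 import very long and branched acyl-CoA, Ehhadh and Hsd17b4 are bifunctional hydratase-dehydrogenases, Acaa1a and Acaa1b are thiolases, Crot and Crat hand shortened chains to carnitine, and Pex11a acts in peroxisome division.

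Crat, the carnitine acetyltransferase, had the largest periportal change of the called members. It read 28.7, 22.5 and 39.6 CPM in periportal fed and 80.8, 104 and 105 CPM in periportal 24 h libraries, and 49.8, 39.5 and 54.6 CPM and 122, 114 and 147 CPM in pericentral ones. The groups did not overlap, with log2 fold changes of 1.67 ± 0.28 (adjusted p = 0.000813) and 1.41 ± 0.27 (adjusted p = 0.00205). Crot, the carnitine octanoyltransferase, followed another course, with 227, 289 and 186 CPM fed, 936, 537 and 548 CPM after 8 h without food and 504, 556 and 517 CPM after 24 h in pericentral cells. All 3 pericentral 8 h libraries lay above the fed ones, and replicate 1 was far above the other 8 h libraries. Crot rose by 1.53 ± 0.33 (adjusted p = 0.00631) from fed to 8 h, and its rise from fed to 24 h was 1.17 ± 0.33 (adjusted p = 0.0206). The 8 h call was kept with each library left out, with log2 changes of 1.22 to 1.72, and the 24 h call was lost without pericentral fed replicate 1 or 3 or 24 h replicate 2. In periportal cells Crot read 278, 208 and 357 CPM, 727, 302 and 276 CPM and 438, 378 and 497 CPM, where replicate 1 of the 8 h group again stood apart, and neither change was called, at 0.63 ± 0.33 (adjusted p = 0.233) and 0.64 ± 0.33 (adjusted p = 0.198).

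Pex11a, which takes part in peroxisome elongation and division, was the 1 member called between the zones in all 3 states. It read 96.2, 98.1 and 86.2 CPM in pericentral fed, 91.6, 122 and 177 CPM in 8 h and 231, 166 and 215 CPM in 24 h libraries. In periportal cells it read 41, 39 and 39.1 CPM, 87.7, 69.3 and 76 CPM and 84.7, 98.1 and 105 CPM. The periportal 24 h libraries thus reached about the level of the pericentral fed ones. The 24 h changes were 1.12 ± 0.18 (adjusted p = 0.00043) in pericentral and 1.28 ± 0.19 (adjusted p = 0.000208) in periportal cells.

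Ehhadh read 320.0, 333 and 247 CPM in pericentral fed and 632, 514 and 565 CPM in pericentral 24 h libraries and rose by 0.93 ± 0.25 (adjusted p = 0.015). Its periportal change was 0.60 ± 0.25 (adjusted p = 0.105). Hsd17b4 rose in pericentral cells by 0.45 ± 0.13 (adjusted p = 0.0214), beside a periportal change of 0.33 ± 0.13 (adjusted p = 0.0921). For both genes the fed and 24 h libraries were free of overlap in both zones. The Ehhadh call was lost without pericentral fed replicate 3 or 24 h replicate 1, and the Hsd17b4 call without pericentral fed replicate 1 or 3 or 24 h replicate 1 or 2. Of the transporters, Abcd3 was level, at 609 ± 15.1 and 629 ± 34.7 CPM (SD, n = 3) in pericentral fed and 24 h cells, a log2 change of 0.05 ± 0.12 (adjusted p = 0.831). Abcd2 was scarce and variable, at 14.2, 8.86 and 15.9 CPM in pericentral fed and 19.3, 49.3 and 19.5 CPM in pericentral 24 h libraries, and 18.1, 22.2 and 38.2 CPM and 16.7, 15.5 and 9.38 CPM in periportal ones. The value of 49.3 CPM was in pericentral 24 h replicate 2, the library with the high periportal marker sum. It lay above all periportal 24 h libraries (16.7, 15.5 and 9.38 CPM), and its cause was not tested. Abcd2 at 24 h lay above fed in pericentral and below fed in periportal cells without overlap, but neither change was called, at 1.18 ± 0.58 (adjusted p = 0.167) and -0.92 ± 0.58 (adjusted p = 0.305).

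Acaa1a and Acaa1b encode peroxisomal thiolases and lie 183934 bases apart on chromosome 9 (Acaa1b 119148043 to 119157093, Acaa1a 119341028 to 119350296, GRCm38). Their coding sequences were identical at 1231 of 1275 bases (96.5%). The first 90 coding bases of each are shown because they illustrate why reads of the pair are hard to assign. They were read from the GENCODE M21 transcripts, 5′ to 3′, with the bases that differ between the copies in capitals.
Acaa1a: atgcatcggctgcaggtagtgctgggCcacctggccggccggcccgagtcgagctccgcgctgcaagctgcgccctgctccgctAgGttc
Acaa1b: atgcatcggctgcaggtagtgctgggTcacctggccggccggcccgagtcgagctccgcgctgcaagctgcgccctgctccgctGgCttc
Of all 31-base words in their coding transcripts, 35.3% of those of Acaa1a and 45.7% of those of Acaa1b occur in the other copy, so the split of counts between them is uncertain.

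With that limit, Acaa1a read 133, 191 and 177 CPM in pericentral fed, 129, 129 and 139.8 CPM in 8 h and 241, 234 and 230.1 CPM in 24 h libraries. In periportal cells it read 112, 104 and 137 CPM, 104, 76.2 and 82.8 CPM and 162, 174 and 167 CPM. The lowest values of both zones were thus at 8 h and the highest at 24 h, with changes from 8 to 24 h of 0.83 ± 0.14 (adjusted p = 0.00152) and 0.93 ± 0.14 (adjusted p = 0.000926) on the log2 scale. Against fed, the 24 h changes were 0.50 ± 0.14 (adjusted p = 0.0151) and 0.51 ± 0.14 (adjusted p = 0.015). Acaa1b read 683, 664 and 451 CPM in pericentral fed and 1137, 1143 and 988 CPM in pericentral 24 h libraries, without overlap, but its libraries varied more and its change of 0.86 ± 0.36 (adjusted p = 0.102) was not called.

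**Figure D4:**
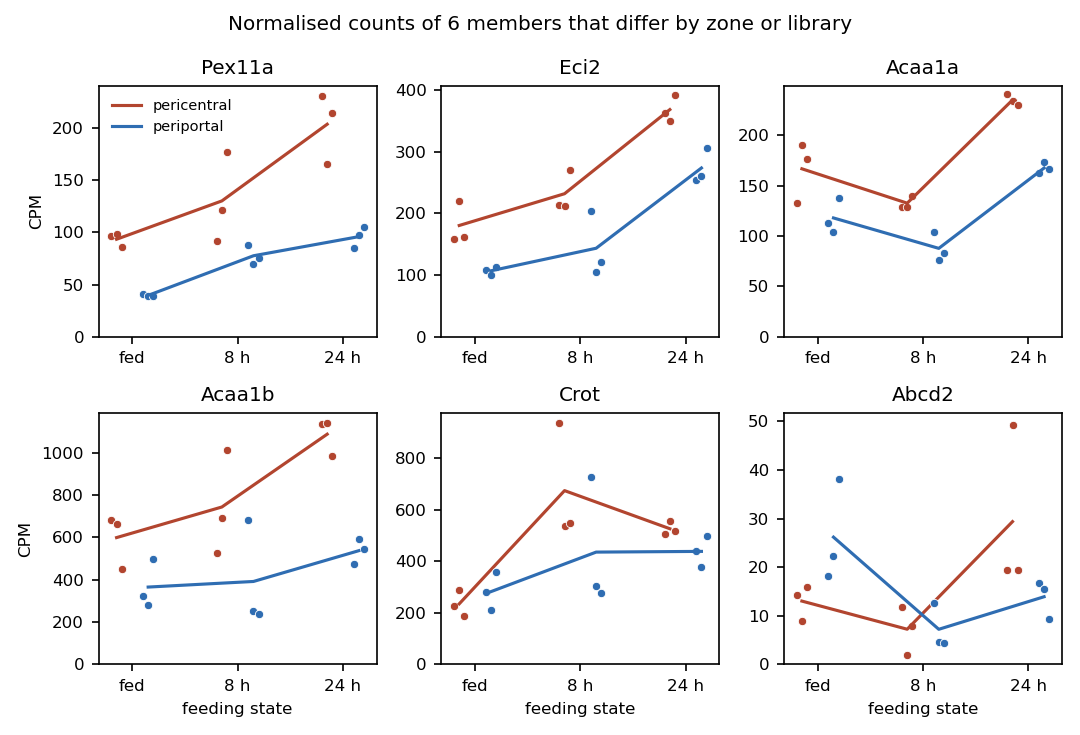
CPM (vertical axes, from 0) of 6 member genes in each of the 18 libraries by feeding state; points are libraries and lines join the means of 3, red for pericentral and blue for periportal. Pex11a and Acaa1a run lower in periportal cells in each state, and Crot has 1 library per zone far above the others at 8 h. Abcd2 has 1 pericentral 24 h library, replicate 2, at 49.3 CPM, above all periportal 24 h libraries.

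Ppara, the fatty-acid-sensing nuclear receptor, rose in both zones at 24 h. It read 109, 103 and 86.2 CPM in pericentral fed, 76.4, 93.5 and 109.8 CPM in 8 h and 187, 214 and 180.4 CPM in 24 h libraries. In periportal cells it read 69, 79.1 and 81.2 CPM, 118, 86.6 and 81.2 CPM and 145, 136 and 129 CPM. The 24 h libraries lay above all fed and 8 h libraries of the same zone. Its log2 fold changes against fed were 0.96 ± 0.15 (adjusted p = 0.000245) and 0.84 ± 0.15 (adjusted p = 0.000897), both kept under all 8 alternative settings and without any 1 library.

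After 8 h, few of the genes had changed. In pericentral cells 2 of 30 rose and 0 fell (Cpt1a and Crot), against 13.8% of all genes called (7.27% higher, 6.57% lower), and the median log2 fold change was 0.08. In periportal cells 2 rose (Cpt1a and Pex11a) and Acaa1a fell, against 14.4% of all genes (7.56% higher, 6.85% lower), with a median of -0.01. Libraries of the 8 h and fed groups did not overlap for 3 genes higher and 2 lower in each zone, beside 32.2% of all genes in pericentral and 31.6% in periportal cells. The members' shares were thus not above those of all genes. Cpt1a rose by 0.51 ± 0.15 (adjusted p = 0.0286) and 0.56 ± 0.15 (adjusted p = 0.0163), Pex11a by 0.97 ± 0.18 (adjusted p = 0.00222), and Acaa1a fell by 0.43 ± 0.14 (adjusted p = 0.0449) on the log2 scale. The periportal Acaa1a call was kept in 4 of the 18 fits that left out 1 library, and the pericentral Cpt1a call was lost without pericentral fed replicate 1 or 3 or 8 h replicate 1 or 3, which left a count of 1 without fed replicate 3 or 8 h replicate 3. The periportal Cpt1a call was lost without periportal fed replicate 2 or 8 h replicate 3, and the count without the latter was 1. The periportal 8 h group was uneven, and its replicate 1, with the high cell stress sum, stood apart, with peroxisomal sums of 3108, 1909 and 1867 CPM, and leaving out its replicate 1 raised the periportal count of calls from 3 to 5, as did leaving out pericentral 8 h replicate 1. The 8 h and 24 h comparisons share the fed libraries.

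Between 8 and 24 h, 16 of 30 genes rose in pericentral cells and 9 in periportal cells, and 0 fell in either, against 9.71% of all genes called in pericentral cells (5.20% higher, 4.51% lower) and 7.46% in periportal cells (3.22% higher, 4.24% lower). The median log2 changes were 0.52 and 0.40. The hour of death also differed between the 8 h and 24 h groups and cannot be told apart from longer fasting. Besides Acaa1a, the genes called in both zones were Cpt1a, Acadl, Acadm, Eci2, Decr1 and Ppara. For Cpt1a the change was 0.90 ± 0.15 (adjusted p = 0.0014) in pericentral and 0.64 ± 0.15 (adjusted p = 0.0142) in periportal cells, and for Ppara 1.06 ± 0.15 (adjusted p = 0.000573) and 0.52 ± 0.15 (adjusted p = 0.0426). For Etfdh in periportal cells the 8 h libraries, at 291, 255 and 263 CPM, overlapped the 24 h ones, a change of 0.03 ± 0.13 (adjusted p = 0.924). The periportal Ppara call was kept in 9 of the 18 fits that left out 1 library, and the periportal Cpt1a call in 17, all but that without periportal 8 h replicate 2. Abcd2 was called here in pericentral cells, at 2.02 ± 0.60 (adjusted p = 0.0495), and kept that call in 1 of the 18 fits. It was among the calls lost without pericentral 24 h replicate 2. The pericentral count fell to 6 without pericentral 8 h replicate 1 and to 10 without replicate 2. The periportal count ranged from 3 without periportal 8 h replicate 2 (5 without replicate 3, and 4 and 5 without 24 h replicates 2 and 3) to 14 without pericentral 8 h replicate 1.

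Between the zones, few of the genes passed the test in any state, but their share was not below that of all genes. Periportal against pericentral, 0 genes were called higher and 3 lower in fed mice (Eci2, Acaa1a and Pex11a), the same 3 after 8 h, and 2 after 24 h (Bdh1 and Pex11a). Of all genes, 8.01%, 7.14% and 4.17% were called in the 3 states, of which 4.13%, 3.42% and 2.47% were called lower and 3.89%, 3.72% and 1.70% higher in periportal cells. The other 26 members were called in none of the 3 comparisons by edgeR. At 24 h DESeq2 also called Ppara (adjusted p = 0.0254) and Acaa1a (adjusted p = 0.0149) lower in periportal cells, and at 8 h Bdh1 (adjusted p = 0.0421). The median log2 difference of the 30 genes was -0.01, -0.07 and -0.19. Pex11a was lower in periportal cells, with log2 differences of -1.24 ± 0.18 (adjusted p = 0.000421), -0.75 ± 0.18 (adjusted p = 0.0186) and -1.09 ± 0.18 (adjusted p = 0.00243) in the fed, 8 h and 24 h states, and no overlap between zones in any of them. For Eci2 they were -0.75 ± 0.20 (adjusted p = 0.0231), -0.69 ± 0.19 (adjusted p = 0.0402) and, not called, -0.43 ± 0.19 (adjusted p = 0.273), and for Acaa1a -0.50 ± 0.14 (adjusted p = 0.03), -0.60 ± 0.14 (adjusted p = 0.0119) and, not called, -0.49 ± 0.14 (adjusted p = 0.053). The Bdh1 difference at 24 h was -0.95 ± 0.25 (adjusted p = 0.0431), a call kept in 4 of the 18 fits that left out 1 library. The 8 h calls of Eci2, Acaa1a and Pex11a were kept in 10, 16 and 15 of those fits and the fed calls of Eci2 and Acaa1a in 14 each. The fed count of 3 fell to 1 without pericentral fed replicate 2 or periportal fed replicate 1 or 2. The 8 h count of 3 fell to 0 without periportal 8 h replicate 2 or 3 and to 1 without pericentral 8 h replicate 3, and rose to 7 without periportal 8 h replicate 1. The 24 h count of 2 fell to 1 without any 1 of the 24 h libraries, pericentral fed replicate 3, periportal fed replicate 1 or 2, or pericentral 8 h replicate 2 or 3, and rose to 5 without periportal 8 h replicate 1.

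Freedom from overlap between 3 and 3 libraries is a looser mark than the test. Between the zones 28.3%, 23.9% and 22.1% of all genes met it in the fed, 8 h and 24 h states. The test called 8.01%, 7.14% and 4.17%. For 20 of the 30 genes all 3 periportal 24 h libraries lay below all 3 pericentral ones, and for 0 they lay above. In fed mice the counts were 5 below and 1 above, and after 8 h 3 below and 0 above. Of all genes, 22.1% were free of overlap between zones at 24 h with 11.7% lower and 10.5% higher in periportal cells, against 13.9% lower in fed mice and 11.7% after 8 h. The 20 genes included 9 of the 9 peroxisomal genes, Ppara, both ketone genes, Eci2, the electron carriers Etfa and Etfdh, the carrier Slc25a20 and 4 of the 9 spiral enzymes. As examples, the log2 differences were -0.50 ± 0.15 (adjusted p = 0.0665) for Ppara, -1.02 ± 0.36 (adjusted p = 0.145) for Acaa1b, -0.21 ± 0.14 (adjusted p = 0.474) for Hadha and -0.17 ± 0.16 (adjusted p = 0.667) for Acadm, none of them called by edgeR. The pericentral 24 h group includes the library with the high periportal marker sum, and without it the zone count at 24 h was 1 (Pex11a) and the median -0.17. Periportal 24 h replicate 1 had the highest pericentral marker sum of its group, and without that library the count was 1 and the median -0.16. Hepatocyte marker transcripts took a larger share of the counts in periportal than in pericentral libraries, and so did cholangiocyte markers, as given above, and the part of either in the zone differences was not tested. With scaling factors computed without the 20 most abundant genes, the median difference at 24 h was -0.19.

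**Figure D5:**
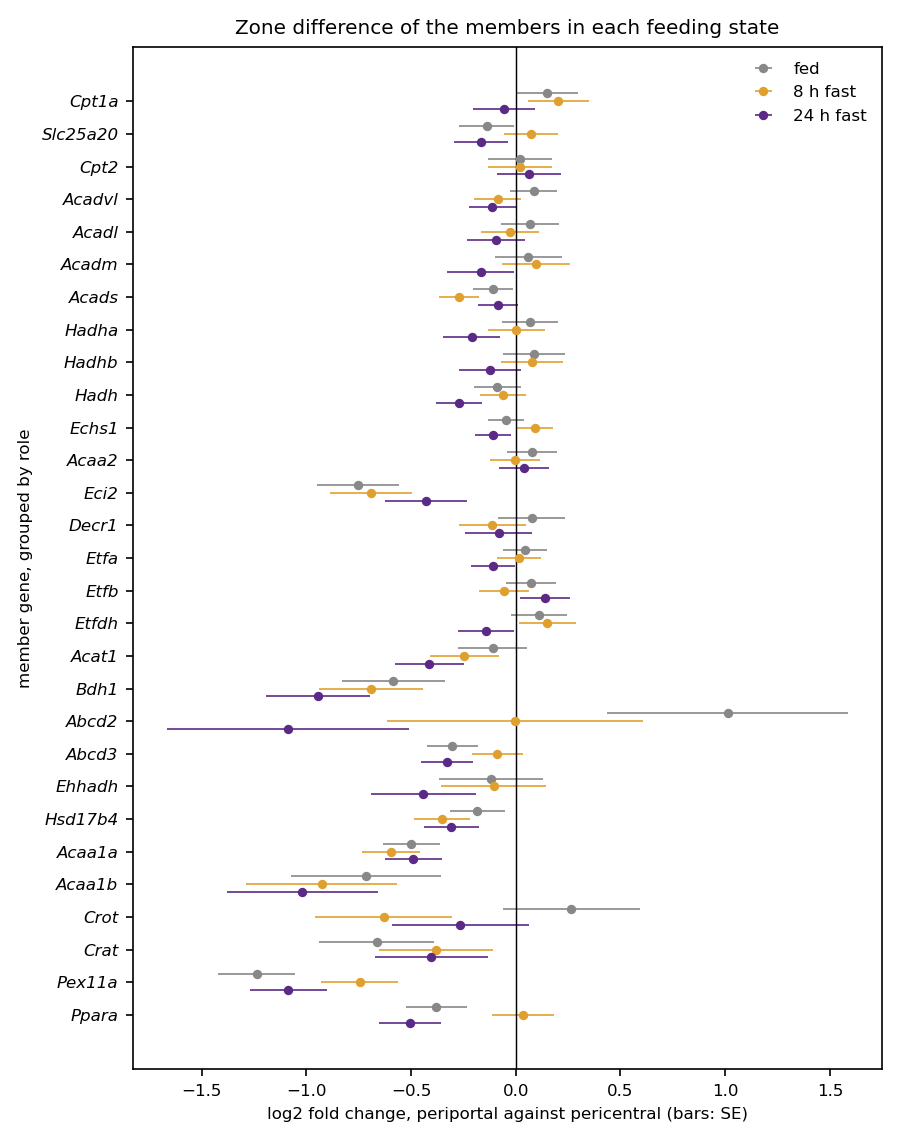
Log2 fold change of periportal against pericentral cells (horizontal axis) with its SE (bars) for 29 member genes by role, in fed mice (grey), after 8 h (orange) and after 24 h (purple). Most mitochondrial genes lie near 0, Pex11a lies at -1.24, -0.75 and -1.09, and the purple points lie mostly left of the line; Eci1 is left out.

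Whether fasting changed the genes differently in the zones was tested by the change in periportal minus that in pericentral cells, in the same edgeR fit. For each of the 3 steps 0 of 30 genes were called, against 0, 0.0160% and 0% of all genes for fed to 8 h, fed to 24 h and 8 to 24 h. DESeq2 and limma-voom also called 0 of the 30. At an unadjusted p under 0.05, 0, 1 and 1 genes passed. These were Abcd2 from fed to 24 h at -2.10 ± 0.82 (adjusted p = 0.564) and Ppara from 8 to 24 h at -0.54 ± 0.21 (adjusted p = 0.798). From fed to 24 h the difference was below 0 for 22 of the 30 genes. With 1 library left out, the median difference ranged from -0.23 to -0.04, and was nearest 0 without periportal fed replicate 3. For Cpt1a it was -0.21 with an interval (95%) of -0.64 to 0.23, and for Hadha -0.28 with -0.68 to 0.13, so that differences of these sizes could not be told from 0 with 3 libraries a group. As a description, the 24 h changes of the 30 genes in the zones correlated across genes with r = 0.63 and rho = 0.78, and the 8 h changes with r = 0.71 and rho = 0.82. Eci1, near 0 counts, was among the 30 genes of these correlations and of the sign count above. The zones share no libraries, and genes are not independent replicates.

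Levels per kilobase of the longest coding transcript are given for the pericentral fed and 24 h groups, as means of 3 libraries. Acaa2 stood at 407 and 535 CPM per kb, Acaa1b at 355 and 645, and Etfa at 260.1 and 309 CPM per kb. In the shuttle, Cpt1a stood at 59.1 and 157 CPM per kb, beside 42.8 and 66.4 for Cpt2. Crat, at 11.4 and 30.2 CPM per kb, and Abcd2, at 2.35 and 5.31, were the lowest of these 7 genes in both groups.

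RefSeq promoter windows of 300 bases (GRCm38.p6, 250 bases before the start site and 50 after) were matched for 24 of the 30 genes. The median GC content of these genes' windows was 61.0%, beside 52.7% over all 32851 windows. Ppara binds DNA with its partner at direct repeats of a short element. A direct repeat of AGGTCA with 1 base between occurred on either strand in the windows of 0 of the 24 genes, and 0.0481% of all 27025 genes held it. The same repeat of AGGNCA was in 0 of 24, beside 0.451% of all genes. The longer element TNAAGGTCA was likewise found in 0 of 24, beside 1.43% of all genes. The single element AGGTCA, which lies within the direct repeat and within TNAAGGTCA, was in the windows of 4 of the 24 (Cpt1a, Acadvl, Acadm and Echs1), beside 18.1% of all genes. An absent match says only that these letters were not in these windows.

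Other genes of the same pathways, 30 in number and 28 of them tested, were split at 24 h. In pericentral cells 10 were called higher and 3 lower, and in periportal cells 9 higher and 4 lower. Of all genes, 10.8% were called higher and 11.1% lower in pericentral cells. In periportal cells 19.6% of all genes were called, 9.59% higher. The largest pericentral changes were in Acacb, the mitochondrial acetyl-CoA carboxylase whose product inhibits Cpt1a, Cpt1b, the muscle form of the outer transferase, and Nudt7, a peroxisomal CoA diphosphatase. Acacb fell from 335, 162 and 318 CPM to 44.1, 25.8 and 40.7 CPM, a change of -2.88 ± 0.49 (adjusted p = 0.00103). Nudt7 fell by 1.98 ± 0.24 (adjusted p = 4.56e-05), and Cpt1b, at 0.117 to 3.26 CPM, rose by 2.74 ± 0.52 (adjusted p = 0.00145). In periportal cells they were Slc22a5, the carnitine importer, which rose from 14.6, 13.7 and 20.3 CPM to 65.5, 80.9 and 88.5 CPM, Cpt1b and Nudt7, with changes of 2.27 ± 0.22 (adjusted p = 8.06e-06), 2.27 ± 0.51 (adjusted p = 0.00523) and -2.25 ± 0.24 (adjusted p = 2.2e-05).

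All 18 genes of a list of partners and further targets of Ppara were tested. At 24 h 6 were called higher and 0 lower in pericentral cells and 9 higher and 0 lower in periportal cells. The shares of all genes in pericentral cells were 10.8% called higher and 11.1% lower. In periportal cells 19.6% of all genes were called, 9.59% higher. Angptl4, a secreted inhibitor of lipoprotein lipase, rose from 12.5, 11.9 and 17.2 CPM to 271, 259.9 and 364 CPM in periportal cells, by 4.43 ± 0.30 (adjusted p = 5.12e-07). In pericentral cells it rose from 26.9, 25.3 and 32.6 CPM to 278, 123 and 276 CPM, by 3.00 ± 0.28 (adjusted p = 6.18e-06). Acot1, an acyl-CoA thioesterase, rose by 4.09 ± 0.73 (adjusted p = 0.00154) in pericentral and 4.09 ± 0.76 (adjusted p = 0.00228) in periportal cells. Ppargc1a, a coactivator of Ppara, rose in pericentral cells by 1.68 ± 0.24 (adjusted p = 0.00016). Pdk4, which restrains pyruvate oxidation, rose in periportal cells by 2.83 ± 0.74 (adjusted p = 0.0169), where 1 of its 24 h libraries (7.71, 11.2 and 37.8 CPM) was far above the others.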

How the data were processed

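RNA from pericentral and periportal hepatocytes was sequenced in 18 libraries. The deposited table holds estimated counts per gene, which the authors made with kallisto 0.46.0 and the mm10 build, per the submitters' processing notes; the annotation and the strand setting are not given in the sources used here. The libraries held 18359911 to 26384358 estimated counts as deposited. The estimated counts were rounded here and fitted in edgeR 4.0.16 (R 4.3.3) with TMM scaling, filterByExpr and the quasi-likelihood F test over 6 groups. Adjusted p-values are Benjamini-Hochberg values over all 12477 genes tested, and a gene is called at an adjusted p under 0.05. SE is the log2 fold change divided by the root of F. CPM are TMM-scaled counts per 1000000.

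Of the table's gene identifiers, 27566 had a symbol. Zone differences are periportal minus pericentral. Members and lists were chosen with earlier results of these data known. Named genes were all members plus, for each of the context lists, the 3 called genes with the largest change per zone at 24 h. The pipeline was tested on simulated data. Alternatives were other scalings (DESeq2 1.42.0 size factors and TMM without the 20 most abundant genes), other filters, the replicate number as a block, fits on the compared groups alone, DESeq2, limma-voom (limma 3.58.1) and each library left out. No pair of replicates agreed within sampling noise. Promoter sequences came from RefSeq tables, and intervals cover the spread between libraries.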

Additional observations from a re-analysis of the deposited data

How the results depend on the processing

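Across 8 other settings with all libraries and 18 fits with 1 library left out, the 75 calls of members changed sign 0 times, and 33 calls were kept throughout. Most counts of called members stayed within 1.5 times the reported one. The exceptions with all libraries were as follows, and the cause was not tested. Fits on the compared groups alone called 1 gene between the zones at 8 h, 5 at 24 h and 1 in periportal cells from fed to 8 h. Without a filter beyond 1 count, 1 gene was called between the zones at 24 h. DESeq2 called 4 between the zones at 24 h, 6 in periportal cells from fed to 8 h and 17 from 8 to 24 h. Of all genes it called 821, 2147 and 1367 in these comparisons, where the main fit called 520, 1798 and 931. A filter at a mean of 1 CPM and limma-voom each called 5 in periportal cells from fed to 8 h, where limma-voom called 1775 of all genes. Calls over all genes were not counted for the compared groups alone, the other filters or the fits with 1 library left out. Member counts under those settings thus have no share of all genes beside them.

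With 1 library left out, the counts ranged from 1 to 4 between the zones in fed mice, from 0 to 7 at 8 h and from 1 to 5 at 24 h. Against fed they ranged from 1 to 3 (8 h, pericentral), 1 to 5 (8 h, periportal), 15 to 22 (24 h, pericentral) and 7 to 18 (24 h, periportal). From 8 to 24 h they ranged from 6 to 16 in pericentral and 3 to 14 in periportal cells, and the zone differences in change stayed at 0.

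With the replicate number as a block, 21 and 17 members were called at 24 h against fed in pericentral and periportal cells, 2 and 4 at 8 h, 15 and 8 from 8 to 24 h, 0 for each zone difference in change, and 3, 2 and 1 between the zones in the fed, 8 h and 24 h states. Of all genes it called, in the same order, 2760 and 2505, 1785 and 1876, 1282 and 965, 0 for each zone difference, and 1036, 959 and 516. The labels do not say that a number marks a shared mouse, so the numbers were not taken as pairing. Between the zones of 1 state, deviations of same-numbered libraries correlated with a median of 0.04 (-0.03 to 0.23, 9 pairs). Over all group pairs, which also join different states, the median was 0.04 (-0.24 to 0.26, 45 pairs). For different numbers it was -0.02 (-0.22 to 0.27, 90 pairs). These correlations do not settle whether a number marks a shared mouse.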
